A study of Rattus norvegicus with 16 samples.

Results

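The 9 genes described here are the prostaglandin and nitric oxide genes Ptgs1, Ptgs2, Ptges, Ptges3, Hpgd, Ptger2, Ptger4, Nos2 and Nos3. They were taken by gene name from a table of 23552 rat genes. The set was chosen with earlier results of these data known, and all 9 are described whatever their values. The table covers RNA sequencing of knee cartilage from rats of 10 weeks, with 16 libraries in 4 groups of 4. The groups were osteoarthritic cartilage given coacervate, cells and drug (the coacervate group), osteoarthritic cartilage given hyaluronic acid, cells and drug (the HA group), osteoarthritic cartilage without these agents, and healthy cartilage. The library names call the osteoarthritic group PBS and the healthy group Sham. What the drug, the cells and the coacervate consist of is not in the labels, nor are the way of inducing osteoarthritis, the strain or the sex. They do not say whether replicates came from separate animals, so each p-value measures the spread between these libraries. In both treated groups the carrier came together with cells and drug, so the agents cannot be told apart.

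Prostaglandins are made from arachidonic acid, which phospholipases release from membranes. The cyclooxygenases Ptgs1 (COX-1, the constitutive form) and Ptgs2 (COX-2, the inducible form) convert it to prostaglandin H2, and the prostaglandin E synthases turn that into prostaglandin E2, which acts on the EP receptors until 15-hydroxyprostaglandin dehydrogenase (Hpgd) breaks it down. Nitric oxide is made from arginine by the nitric oxide synthases, of which Nos2 is the inducible and Nos3 the endothelial form. In arthritic joints both mediators are known from cartilage, synovium and infiltrating cells. COX-2 is the target of many anti-inflammatory drugs.

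None of the 9 genes passed the test across all genes in any of the 6 comparisons. A gene was called where edgeR's quasi-likelihood test gave a Benjamini-Hochberg adjusted p under 0.05 over all tested genes. Tested were the 14337 genes that reached 1 FPKM in at least 4 libraries, and all 9 genes were among them. Hpgd passed this filter through osteoarthritic and coacervate libraries alone. In osteoarthritic against healthy cartilage, 0 of 9 genes were called, against 0.502% of all tested genes. DESeq2 called 1 of the 9 genes there, Hpgd, against 2.92% of all genes with an adjusted p, and limma on log2(FPKM + 1) called 0, against 0.146%. At an unadjusted p under 0.05 the edgeR test held 3 of the 9 genes, Hpgd, Ptgs1 and Ptges, against 17.8% of all tested genes. Hpgd and Ptges averaged 2.35-fold and 2.02-fold higher in osteoarthritic than in healthy cartilage, and Ptgs1 was 0.805 of its healthy level. The inducible enzymes Ptgs2 and Nos2 had intervals that covered no change.

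The 16 libraries held between 36988722 and 50725189 counts, with 18627 to 19457 genes above a count of 0. Osteoarthritic replicates 2 and 3 stood apart, at 69.6 and 58.9 on a first principal component that took 32.5% of the variance. The other 14 libraries lay between -32.3 and 12.7. The chondrocyte markers Col2a1, Acan, Sox9, Col9a1, Col11a1, Matn1, Hapln1 and Comp had counts in every library, except Matn1 at a count of 0 in HA replicates 1 and 4. Their summed level was 2414 to 3601 CPM (counts scaled to library size with TMM factors) in the coacervate group, 3265 to 4783 CPM in the HA group, 1910 to 4417 CPM in osteoarthritic cartilage and 2044 to 4206 CPM in healthy cartilage. The libraries also held markers of other tissues. The 4 skeletal muscle markers found summed to 4780 to 7711 CPM in healthy and 2684 to 5061 CPM in osteoarthritic cartilage. In the HA and coacervate groups they summed to 3253 to 3777 CPM and 4769 to 17353 CPM. The 5 erythroid markers found summed to 4658 to 6473 CPM in healthy and 5375 to 5684 CPM in osteoarthritic cartilage. In the HA and coacervate groups these summed to 4341 to 5598 CPM and 5738 to 6898 CPM. The 8 neutrophil markers summed to 5832, 19203, 12541 and 7336 CPM in osteoarthritic replicates 1 to 4 and to 6608 to 8069 CPM in healthy cartilage, so the same pair of osteoarthritic libraries was high. In such bulk samples, fewer cells of a type and less RNA per cell cannot be told apart.

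RefSeq sequence of the bases upstream of the start site (assembly GRCr8, 250 bases, 5′ to 3′ on the strand of the gene) is shown for 3 of the genes. Hpgd and Ptgs1 are shown because their osteoarthritic and healthy libraries did not overlap in CPM or in FPKM, and Ptgs2 because it is the inducible enzyme of the pathway. Capitals mark letters that matched one of the motifs searched.
Hpgd, chr16:39034832-39035081, minus strand: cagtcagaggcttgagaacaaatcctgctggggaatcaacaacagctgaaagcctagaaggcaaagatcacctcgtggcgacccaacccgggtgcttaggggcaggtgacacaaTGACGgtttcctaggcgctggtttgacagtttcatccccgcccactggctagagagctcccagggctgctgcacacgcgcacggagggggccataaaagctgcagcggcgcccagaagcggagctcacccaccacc
Ptgs2, chr13:64713813-64714062, plus strand: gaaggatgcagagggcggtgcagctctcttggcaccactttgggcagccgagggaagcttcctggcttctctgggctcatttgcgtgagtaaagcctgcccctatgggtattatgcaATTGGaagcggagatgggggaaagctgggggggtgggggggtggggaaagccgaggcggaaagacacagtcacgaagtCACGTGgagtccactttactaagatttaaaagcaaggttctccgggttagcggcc
Ptgs1, chr3:39981169-39981418, plus strand: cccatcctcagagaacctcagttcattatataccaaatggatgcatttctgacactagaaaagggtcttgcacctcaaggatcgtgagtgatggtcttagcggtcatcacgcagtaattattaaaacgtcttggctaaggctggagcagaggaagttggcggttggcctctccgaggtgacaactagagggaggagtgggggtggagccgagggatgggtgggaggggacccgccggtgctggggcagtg
In Hpgd the capitals are TGACG, the core of the cyclic AMP response element, which began 136 bases before the start. In Ptgs2 they are CCAAT read on the opposite strand, from 133 bases before the start, and the E-box CACGTG from 55 bases before it. The E-box holds the shorter hypoxia core ACGTG on both strands. Ptgs1 held none of the motifs in these letters. RefSeq windows of 300 bases, 250 before to 50 after the start, were matched for 8 of the 9 genes, with none for Nos2. Over both strands, TGACG was in 2 of the 8 windows (Ptges3 and Hpgd) and in 21.2% of 33469 windows of the same length. CACGTG was likewise in 2 of the 8 (Ptgs2 and Hpgd, in Hpgd 23 bases after the start) and in 6.42% of all windows. ACGTG was in the same pair and in 19.3% of all windows, and CCAAT in 1 of the 8 and in 37.5%. The TATA box TATAAA, the full element TGACGTCA, the AP-1 motif TGANTCA and the NF-kB motif GGANTTTCC were in 0 of the 8 windows, and in 14.2%, 1.83%, 7.33% and 1.28% of all windows. No binding or chromatin data were analysed here, so these matches describe the letters alone.

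Compared per transcript length, the genes spanned a wide range of levels. Over the 16 libraries the order by mean FPKM was Ptges3, Ptgs1, Ptger4, Ptger2, Nos3, Nos2, Ptges, Ptgs2 and Hpgd. Ptges3 averaged 98.2 ± 9.75 FPKM in the coacervate group, 102 ± 8.98 FPKM in the HA group, 108 ± 20.6 FPKM in osteoarthritic cartilage and 104 ± 5.22 FPKM in healthy cartilage (SD, n = 4 each). Ptgs1 followed at 26.1 ± 3.39 FPKM in the coacervate group, 28.8 ± 2.36 FPKM in the HA group, 22.5 ± 2.58 FPKM in osteoarthritic cartilage and 30.4 ± 4.69 FPKM in healthy cartilage. Ptger4 came next, at 4.84 to 5.70 FPKM over the group means. These 3 genes did not overlap in FPKM with one another or with the lower genes in any group. The other 6 genes had group means between 0.495 FPKM (Hpgd in healthy cartilage) and 2.24 FPKM (Ptger2 in the HA group). Among these 6, the ranges of neighbours in the order overlapped in osteoarthritic cartilage, so their order there is not separated by the spread.

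**Figure D1:**
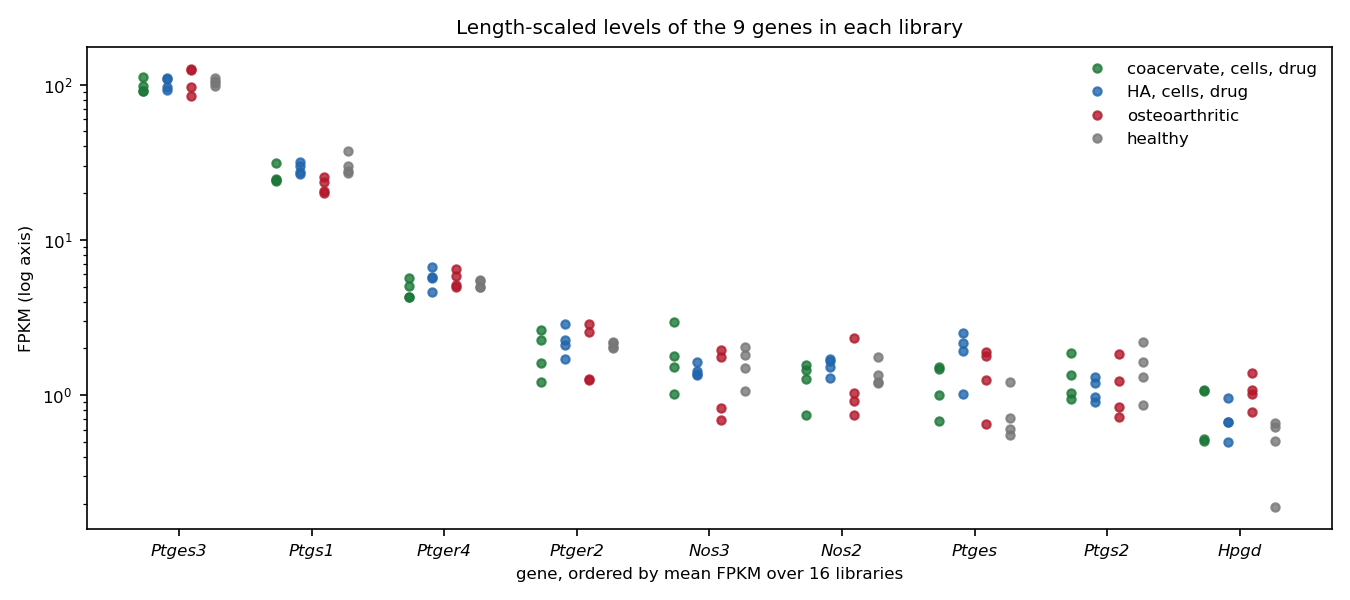
FPKM on a log axis for the 9 genes, ordered by mean over 16 libraries, with each point a library coloured by group. Ptges3 and Ptgs1 sit above the other 7 genes in every library, and the 6 lowest genes lie between 0.19 and 2.98 FPKM.

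Ptgs1 (ENSRNOG00000007415, rn6 chromosome 3, 15560712 to 15582344, plus strand) was the more abundant cyclooxygenase in FPKM in every library. It had 77.6, 97.5, 78.8 and 79.0 CPM in coacervate replicates 1 to 4, and 96.8, 82.6, 95.0 and 85.7 CPM in the HA group. Osteoarthritic cartilage had 78.6, 81.7, 76.2 and 72.7 CPM, against 87.1, 84.0, 91.1 and 122 CPM in healthy cartilage. Every osteoarthritic library was below every healthy one, and also below every HA library, by a narrow margin in both cases. Osteoarthritic over healthy cartilage gave a log2 fold change of -0.31 ± 0.12 (SE; 95% interval -0.56 to -0.06), with an edgeR adjusted p of 0.219. Without healthy replicate 4, the highest library, it was -0.18 with an edgeR adjusted p of 0.478. HA over osteoarthritic cartilage gave 0.22 ± 0.12 (edgeR adjusted p = 0.745) and coacervate over osteoarthritic cartilage 0.11 ± 0.12 (0.602). Platelets are a known source of COX-1, and the mean summed level of 6 platelet markers had the same order of groups as Ptgs1. The sum was 741 to 913 CPM in the coacervate group, 759 to 935 CPM in the HA group, 553 to 850 CPM in osteoarthritic cartilage and 803 to 1340 CPM in healthy cartilage, highest in healthy replicate 4. Single libraries did not all follow this order. Coacervate replicate 1 had the highest platelet sum of its group, 913 CPM, and the lowest Ptgs1. Osteoarthritic replicates 2 and 3 had platelet sums of 811 and 850 CPM, inside the healthy range, with Ptgs1 below every healthy library. Of these markers, 1 had a positive and 5 a negative log2 fold change in osteoarthritic against healthy cartilage. Gp5 fell there by 0.81 on the log2 scale (edgeR adjusted p = 0.0498), against 0.502% of all tested genes called. The other 5 were not called. Their part in the Ptgs1 difference was not tested.

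Ptgs2 (ENSRNOG00000002525, rn6 chromosome 13, 67351087 to 67359335, plus strand) varied within groups about as much as between them. The coacervate group had 6.63, 5.02, 9.61 and 4.74 CPM and the HA group 6.20, 4.76, 4.49 and 5.87 CPM. Osteoarthritic cartilage had 5.96, 5.21, 4.26 and 8.77 CPM, against 8.27, 4.10, 6.20 and 11.3 CPM in healthy cartilage. All groups overlapped, and the highest library of all was healthy. In osteoarthritic over healthy cartilage the log2 fold change was -0.30 ± 0.30 (95% interval -0.95 to 0.34, edgeR adjusted p = 0.606). It was -0.031 without healthy replicate 4 and -0.52 without osteoarthritic replicate 4. HA over osteoarthritic cartilage gave -0.18 ± 0.30 (edgeR adjusted p = 0.903), and coacervate over osteoarthritic cartilage 0.10 ± 0.30 (0.863). The HA group against healthy cartilage gave -0.49 ± 0.30, with an edgeR adjusted p of 0.79, and -0.22 without healthy replicate 4.

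Ptges (ENSRNOG00000006320, rn6 chromosome 3, 9727408 to 9738752, minus strand) encodes the microsomal prostaglandin E synthase that is induced together with COX-2 in inflammation. It had 0.970, 2.09, 2.23 and 1.46 CPM in the coacervate group and 2.97, 3.51, 2.77 and 1.44 CPM in the HA group. Osteoarthritic cartilage had 2.63, 2.25, 3.02 and 0.914 CPM, against 1.05, 0.839, 1.68 and 0.814 CPM in healthy cartilage. In 3 of 4 osteoarthritic libraries Ptges was above every healthy library, while osteoarthritic replicate 4 lay within the healthy range. Osteoarthritic over healthy cartilage came to 1.01 ± 0.39 on the log2 scale, or 2.02-fold (95% interval 0.19 to 1.84 on the log2 scale, unadjusted p = 0.0191, edgeR adjusted p = 0.222). HA over healthy cartilage was larger, at 1.29 ± 0.39 or 2.45-fold (95% interval 0.47 to 2.12, unadjusted p = 0.00429, edgeR adjusted p = 0.29), with 3 of 4 HA libraries above every healthy one. Coacervate over HA was -0.66 ± 0.38 with an interval that covered 0 (-1.47 to 0.14, edgeR adjusted p = 0.6). Both comparisons with healthy cartilage share its 4 libraries.

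Ptges3 (ENSRNOG00000002642, rn6 chromosome 7, 2479311 to 2497013, plus strand) encodes the cytosolic prostaglandin E synthase, better known as the HSP90 co-chaperone p23. The coacervate group lay between 173 and 210 CPM and the HA group between 174 and 203 CPM. Osteoarthritic cartilage had 155, 292, 283 and 174 CPM, against 187 to 199 CPM in healthy cartilage. Osteoarthritic replicates 2 and 3 were above every healthy library and replicates 1 and 4 below every one. This gave a log2 fold change of 0.22 ± 0.17 for osteoarthritic over healthy cartilage (edgeR adjusted p = 0.492), and it was -0.24 without osteoarthritic replicates 2 and 3, the pair that stood apart over all genes.

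**Figure D2:**
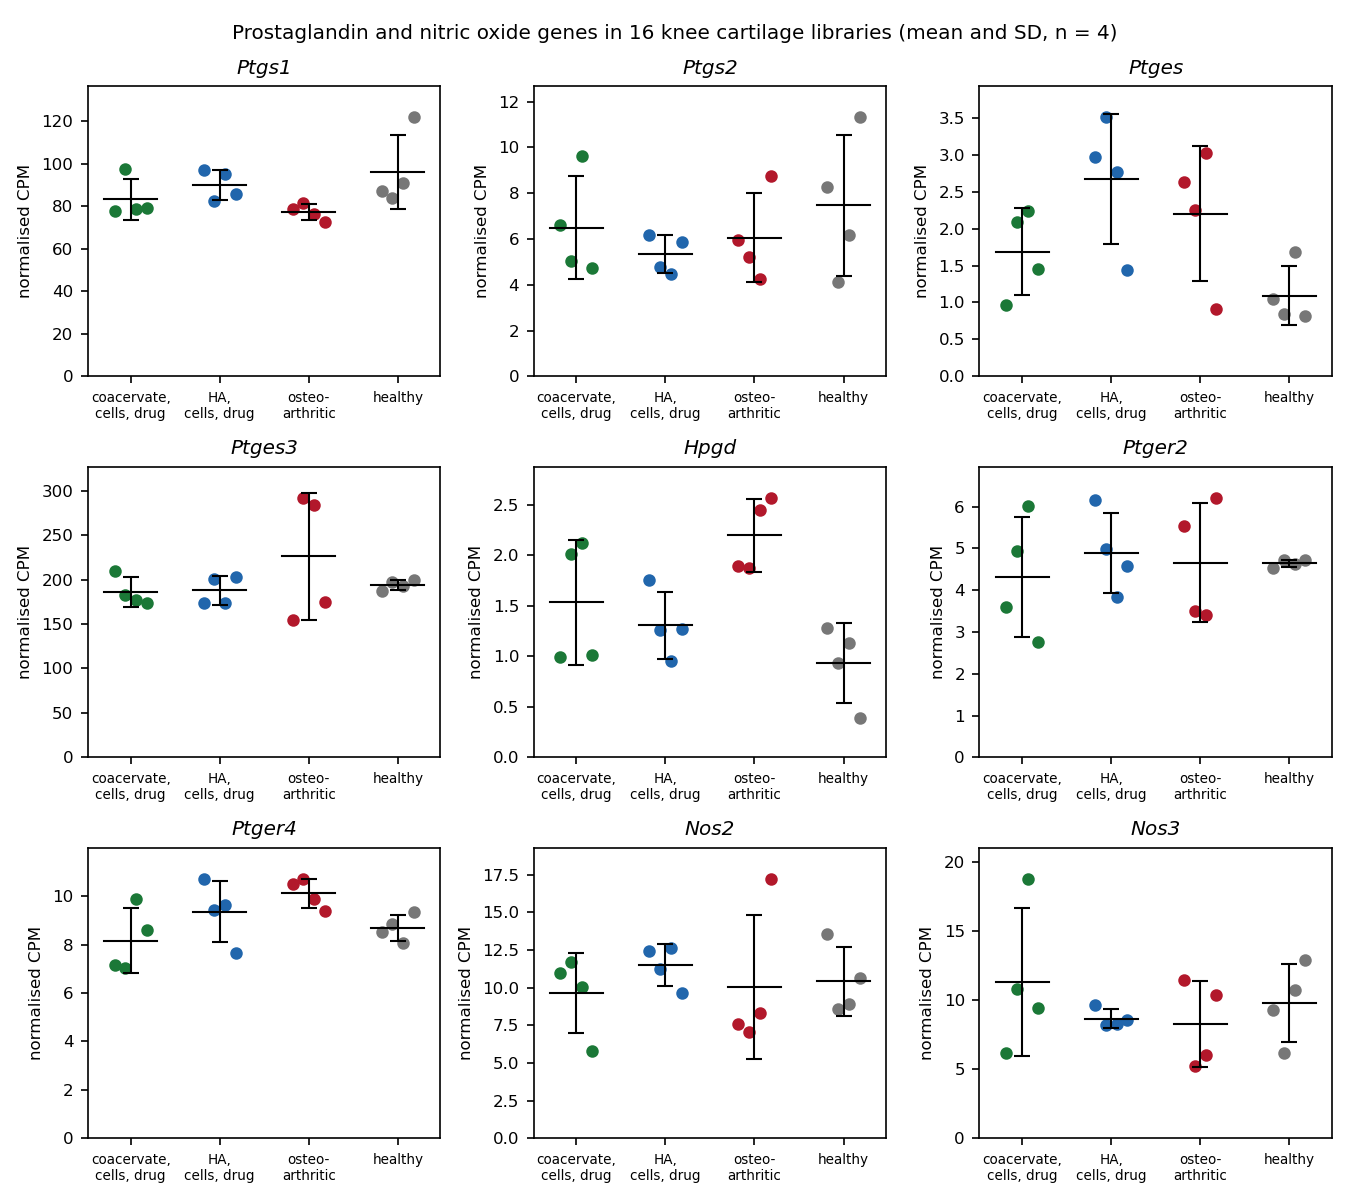
Normalised CPM of each gene in each of the 16 libraries (points), with the mean and SD of the 4 libraries per group (bars and whiskers), on linear axes that start at 0. The osteoarthritic points lie above the healthy ones for Hpgd, below them for Ptgs1, and spread widely for Ptges3 and Nos2.

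Hpgd (ENSRNOG00000010610, rn6 chromosome 16, 37457135 to 37495758, minus strand), whose enzyme starts the breakdown of prostaglandin E2, differed most between osteoarthritic and healthy cartilage among the 9 genes, by fold and by p. The coacervate group had 0.990, 2.01, 2.13 and 1.01 CPM, and the HA group 1.76, 1.26, 0.951 and 1.27 CPM. Osteoarthritic cartilage had 1.897, 1.88, 2.45 and 2.57 CPM, against 1.28, 0.934, 1.14 and 0.385 CPM in healthy cartilage. These rest on 91, 76, 103 and 118 counts in the osteoarthritic libraries and on 60, 49, 44 and 18 counts in the healthy ones. Every osteoarthritic library was above every healthy one, in CPM and in FPKM. The filter level of 1 FPKM was reached in osteoarthritic replicates 1, 3 and 4 and in coacervate replicates 2 and 3. No healthy library (highest 0.66 FPKM) and no HA library (highest 0.96 FPKM) reached it. Hpgd was thus tested only through the groups where its mean was higher. With no filter, edgeR called 0 of the 9 genes in osteoarthritic against healthy cartilage. On the log2 scale, osteoarthritic over healthy cartilage was 1.23 ± 0.35, or 2.35-fold (95% interval 0.49 to 1.98, unadjusted p = 0.00289, rank 285 of 14337 genes, edgeR adjusted p = 0.146). With DESeq2 it passed, at 1.24 ± 0.36 and an adjusted p of 0.0304, and it also passed with edgeR without osteoarthritic replicate 1 (1.31 ± 0.38, adjusted p = 0.049), a fit that called 7.83% of all tested genes. Without healthy replicate 4, the library with 18 counts, it was 0.98 ± 0.31 (edgeR adjusted p = 0.235), and on the compressed scale of limma on log2(FPKM + 1) it was 0.47 ± 0.15 (limma adjusted p = 0.202). Without osteoarthritic replicates 2 and 3 it was as large, at 1.25 ± 0.43 (edgeR adjusted p = 0.194).

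Mean Hpgd in the treated groups, 1.54 ± 0.619 CPM with coacervate and 1.31 ± 0.332 CPM with HA, lay between 2.198 ± 0.362 CPM in osteoarthritic and 0.934 ± 0.393 CPM in healthy cartilage (SD, n = 4 each). HA over osteoarthritic cartilage gave -0.75 ± 0.34 (95% interval -1.47 to -0.016, unadjusted p = 0.0457, edgeR adjusted p = 0.745). Every HA library was below every osteoarthritic one in CPM, while the ranges overlapped in FPKM. Coacervate over osteoarthritic cartilage gave -0.52 ± 0.34 (edgeR adjusted p = 0.369), with coacervate replicates 2 and 3 inside the osteoarthritic range and replicates 1 and 4 below it. Coacervate over healthy cartilage was 0.72 ± 0.35 (unadjusted p = 0.0574, edgeR adjusted p = 1). The comparisons of HA, coacervate and healthy cartilage with osteoarthritic cartilage share its 4 libraries. The summed level of markers of fibroblasts and synovial lining was likewise above the healthy range in 3 of 4 osteoarthritic libraries. The 6 markers summed to 837 to 1762 CPM in the coacervate group, 876 to 1335 CPM in the HA group, 1507, 592, 758 and 1241 CPM in osteoarthritic replicates 1 to 4, and 575 to 699 CPM in healthy cartilage. Of them 4 had a positive and 2 a negative log2 fold change in osteoarthritic against healthy cartilage. Dpt, an extracellular matrix gene of connective tissue, rose 1.26 on the log2 scale there (edgeR adjusted p = 0.0466), against 0.502% of all tested genes called. The other 5 were not called. The part of these cells in either result was not tested.

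**Figure D3:**
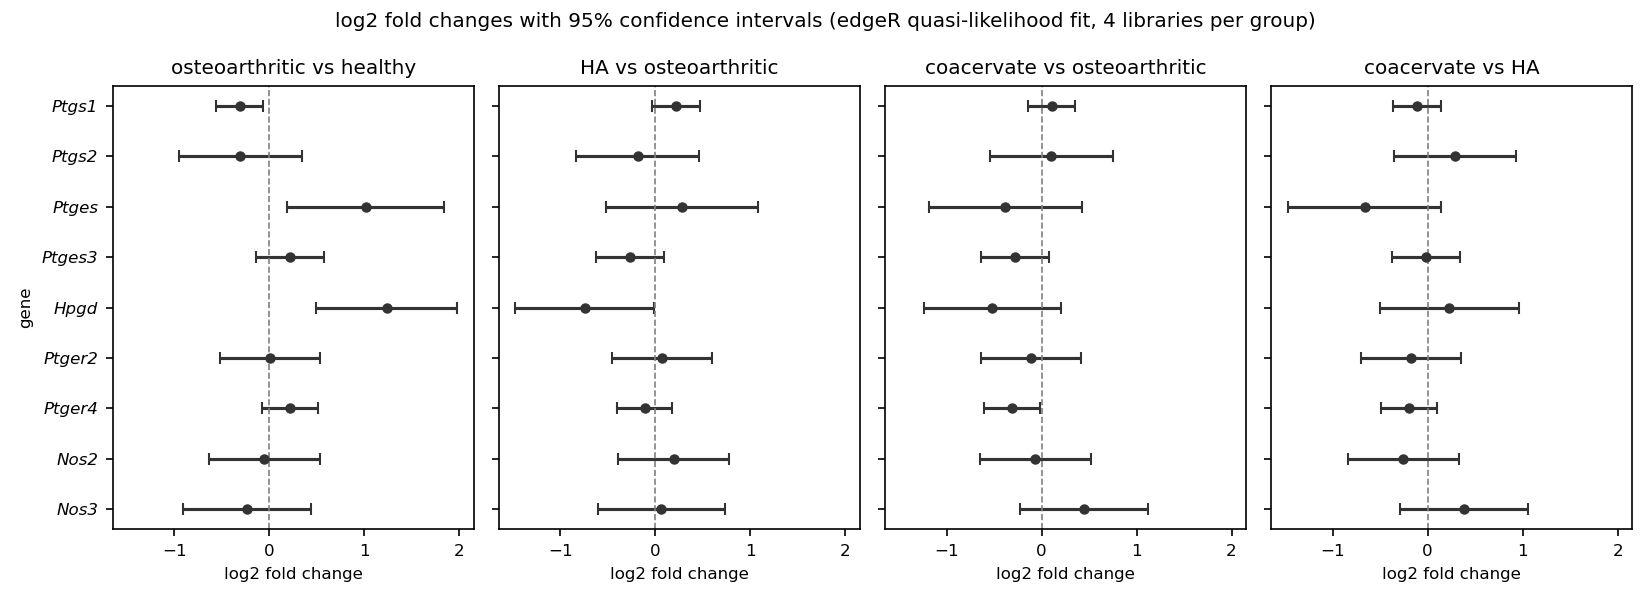
The log2 fold change (x axis) of each of the 9 genes (rows) with its 95% interval. The panels are osteoarthritic vs healthy, HA vs osteoarthritic, coacervate vs osteoarthritic and coacervate vs HA. In osteoarthritic vs healthy the intervals of Hpgd, Ptges and Ptgs1 leave out 0, in HA vs osteoarthritic that of Hpgd, and in coacervate vs osteoarthritic that of Ptger4. In coacervate vs HA every interval covers 0. None of the 9 had an edgeR adjusted p under 0.05.

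Ptger2 (ENSRNOG00000050968, rn6 chromosome 15, 19338175 to 19350210, plus strand) and Ptger4 (ENSRNOG00000013240, rn6 chromosome 2, 54952821 to 54963448, minus strand) encode EP2 and EP4, the prostaglandin E2 receptors that raise cyclic AMP. Ptger2 had 3.60, 4.94, 6.004 and 2.75 CPM in the coacervate group and 6.16, 4.98, 3.85 and 4.58 CPM in the HA group. Osteoarthritic cartilage had 5.53, 3.51, 3.40 and 6.20 CPM, against 4.53 to 4.71 CPM in healthy cartilage. The healthy libraries lay close together (SD 0.0867 CPM) and the osteoarthritic ones fell on both sides of them. The log2 fold change of osteoarthritic over healthy cartilage was 0.0063 ± 0.25 (95% interval -0.52 to 0.53, edgeR adjusted p = 0.993). It was -0.097 with limma on log2(FPKM + 1), and leaving out 1 library at a time took it from -0.15 to 0.14.

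Ptger4 had 7.16, 7.04, 9.86 and 8.59 CPM in the coacervate group and 10.7, 9.43, 9.62 and 7.66 CPM in the HA group. Osteoarthritic cartilage had 10.5, 10.7, 9.87 and 9.40 CPM, against 8.50, 8.83, 8.06 and 9.36 CPM in healthy cartilage. The osteoarthritic and healthy libraries did not overlap in CPM but did in FPKM (4.95 to 6.46 FPKM in osteoarthritic and 4.98 to 5.53 FPKM in healthy cartilage). The log2 fold change was 0.22 ± 0.14 (edgeR adjusted p = 0.401). Coacervate over osteoarthritic cartilage was -0.31 ± 0.14 (95% interval -0.60 to -0.018, unadjusted p = 0.0391, edgeR adjusted p = 0.212), with 3 of 4 coacervate libraries below every osteoarthritic one.

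Counting libraries that do not overlap in CPM, 3 of the 9 genes (Hpgd and Ptger4 higher, Ptgs1 lower) separated osteoarthritic from healthy cartilage, against 6.33% of all tested genes. In HA against osteoarthritic cartilage it was 2 of 9 (Ptgs1 higher, Hpgd lower), against 1.9%. In coacervate against osteoarthritic cartilage it was 0 of 9, against 5.6%, and it was also 0 of 9 in coacervate against HA (9.71%), HA against healthy (9.83%) and coacervate against healthy cartilage (3.66%).

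Nos2 (ENSRNOG00000057443, rn6 chromosome 10, 66189786 to 66313190, plus strand), the inducible nitric oxide synthase of activated macrophages and chondrocytes, had 10.98, 11.7, 10.05 and 5.77 CPM in the coacervate group and 12.5, 11.3, 12.6 and 9.66 CPM in the HA group. Osteoarthritic cartilage had 7.59, 7.09, 8.35 and 17.2 CPM, against 13.6, 8.60, 8.91 and 10.6 CPM in healthy cartilage. In 3 of 4 osteoarthritic libraries Nos2 was below every healthy library, and osteoarthritic replicate 4 was the highest of all 16. Over all 4 libraries, the log2 fold change of osteoarthritic over healthy cartilage was -0.05 ± 0.28 (95% interval -0.64 to 0.53, edgeR adjusted p = 0.936). Without osteoarthritic replicate 4 it was -0.42 (edgeR adjusted p = 0.233), and without osteoarthritic replicates 2 and 3 it was 0.24, so the direction depends on which libraries enter. The 8 macrophage markers summed to 904 to 948 CPM in the coacervate group, 875 to 1108 CPM in the HA group, 1068, 826, 954 and 1075 CPM in osteoarthritic replicates 1 to 4 and 858 to 1191 CPM in healthy cartilage. Their part was not tested.

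Nos3 (ENSRNOG00000009348, rn6 chromosome 4, 7320668 to 7342410, minus strand), the synthase of blood vessel endothelium, had 6.21, 10.8, 18.8 and 9.42 CPM in the coacervate group and 9.63, 8.19, 8.27 and 8.60 CPM in the HA group. Osteoarthritic cartilage had 11.5, 5.26, 6.04 and 10.4 CPM, against 9.29, 6.16, 10.7 and 12.9 CPM in healthy cartilage. All groups overlapped. Osteoarthritic over healthy cartilage gave a log2 fold change of -0.23 ± 0.32 (edgeR adjusted p = 0.708). Coacervate over osteoarthritic cartilage gave 0.45 ± 0.32 (edgeR adjusted p = 0.402), and 0.087 without coacervate replicate 3. The 7 endothelial markers in the table summed to 346, 435, 482 and 385 CPM in coacervate replicates 1 to 4, 313 to 402 CPM in the HA group, 414, 262, 295 and 341 CPM in osteoarthritic replicates 1 to 4, and 358 to 497 CPM in healthy cartilage. Coacervate replicate 3 was thus the highest of its group for Nos3 and for these markers, and osteoarthritic replicates 2 and 3 the lowest of theirs for both. In the HA group the lowest library differed. The marker sum was lowest in HA replicate 4 (313 CPM, with Nos3 at 8.60 CPM). Nos3 was lowest in HA replicate 2 (8.19 CPM, with a marker sum of 326 CPM). Coacervate replicate 3 also had the highest skeletal muscle marker sum of all libraries, 17353 CPM against 4769 to 8214 CPM in the other coacervate libraries. The part of these cells in the Nos3 values was not tested.

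For the treated groups, edgeR called 0 of the 9 genes in HA against osteoarthritic cartilage (0% of all tested genes), in coacervate against osteoarthritic cartilage (0.146%), in coacervate against HA (0%), in HA against healthy cartilage (0.16%) and in coacervate against healthy cartilage (0%). DESeq2 and limma also called 0 of 9 in these 5 comparisons, where DESeq2 called 0.0559%, 5.91%, 2.31%, 1.11% and 0.126% of all genes, in the same order. At an unadjusted p under 0.05 the edgeR test held Hpgd in HA against osteoarthritic cartilage (6.34% of all tested genes), Ptger4 in coacervate against osteoarthritic cartilage (21.8%) and Ptges in HA against healthy cartilage (8.25%). It held 0 of 9 in coacervate against HA (10.4%) and in coacervate against healthy cartilage (3.85%). The median log2 fold change of the 9 genes was 0.063 in HA against osteoarthritic cartilage, -0.11 in coacervate against osteoarthritic cartilage and 0.0063 in osteoarthritic against healthy cartilage. Over all tested genes it was -0.011, -0.010 and 0.015 in these comparisons.

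The rest of the prostanoid, leukotriene and nitric oxide pathways was read from lists of 58 symbols, of which 52 were in the table and 47 were tested. None of the 47 was called by edgeR over all 16 libraries in any comparison. At an unadjusted p under 0.05, edgeR held 12 of them in osteoarthritic against healthy cartilage (17.8% of all tested genes), 4 in HA against osteoarthritic cartilage (6.34%) and 12 in coacervate against osteoarthritic cartilage (21.8%). It held 7 in coacervate against HA (10.4%), 6 in HA against healthy (8.25%) and 5 in coacervate against healthy cartilage (3.85%). DESeq2 called Gucy1b1 in osteoarthritic against healthy cartilage (adjusted p = 0.0267), against 2.92% of all genes with an adjusted p. It called Ptgr1 and Alox5ap in coacervate against osteoarthritic cartilage (0.02 and 0.0371), against 5.91%, and Lta4h in coacervate against HA (0.00888), against 2.31%. Limma called 0 of the 47 in each comparison. Without osteoarthritic replicate 1, edgeR called 4 of the 47 in osteoarthritic against healthy cartilage (among them Alox5ap and Gch1 higher and Alox12 lower), against 7.83% of all tested genes. In that fit, edgeR called 7 in coacervate against osteoarthritic cartilage, against 14.3% of all tested genes. Without osteoarthritic replicate 4 it called 6 in coacervate against osteoarthritic cartilage, against 9.54% of all tested genes. Without osteoarthritic replicates 2 and 3 it called Lta4h and Alox5ap in coacervate against HA, against 1.04%. Fitted on the coacervate and HA libraries alone it called 0 of all tested genes. Fitted on the HA and healthy libraries alone it called Ddah2, higher in HA, against 2.72%.

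In the phospholipase list, upstream of the cyclooxygenases, all 7 genes tested had a negative log2 fold change in osteoarthritic against healthy cartilage. Their median was -0.11, and 0 were called. Among these 7, Plaa encodes a phospholipase-activating protein and is not itself a phospholipase. Of the 7, 5 were negative without osteoarthritic replicates 2 and 3, with a median of -0.11. Against 52.1% of all tested genes that were positive in that comparison, 4 of the 5 other prostanoid synthases were positive, with a median of 0.19. It was 2 of 5 without osteoarthritic replicates 2 and 3, with a median of -0.082. Tbxas1, the thromboxane synthase, had 25.2, 27.9, 31.4 and 27.9 CPM in osteoarthritic and 25.2, 23.3, 17.6 and 20.6 CPM in healthy cartilage (0.38 ± 0.16, edgeR adjusted p = 0.251). Among the other prostanoid receptors, 4 of 5 were negative with a median of -0.35. Tbxa2r, the thromboxane receptor, gave -0.50 ± 0.19 (edgeR adjusted p = 0.218). Ptgfr, the prostaglandin F receptor, gave -0.49 ± 0.18 (0.214), and Ptgir, the prostacyclin receptor, -0.35 ± 0.15 (0.253). Leaving out osteoarthritic replicates 2 and 3, Ptgfr was -0.27, Ptgir -0.20 and the list median -0.20. Tbxas1, Tbxa2r and Alox12 are also platelet genes, and the platelet marker sums are given with Ptgs1 above. In the leukotriene branch, Alox12, the platelet-type lipoxygenase, gave -0.58 ± 0.17 (0.162), while Alox5ap, the activating protein of 5-lipoxygenase, gave 0.55 ± 0.22 (0.225). Alox5ap was -0.047 without osteoarthritic replicates 2 and 3.

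On the nitric oxide side, the 6 genes that make and recycle tetrahydrobiopterin, the cofactor of the synthases, were all positive in osteoarthritic against healthy cartilage (median 0.45) and all negative in HA and in coacervate against osteoarthritic cartilage (medians -0.40 and -0.51), with 0 called. These comparisons share the osteoarthritic libraries. Gch1, the first and limiting enzyme of that pathway, had 51.3, 155, 139 and 59.9 CPM in osteoarthritic cartilage and 64.7, 49.3, 51.4 and 43.2 CPM in healthy cartilage. It was high in osteoarthritic replicates 2 and 3 alone, the libraries with the high neutrophil marker sums. Its log2 fold change was 0.96 ± 0.31 (edgeR adjusted p = 0.187). It was 0.087 without that pair, and the list then had 5 of 6 genes negative with a median of -0.21. In HA and in coacervate against the remaining osteoarthritic libraries, 5 of 6 were then positive, with medians of 0.16 in both. The 3 genes downstream of nitric oxide, the guanylate cyclase subunits Gucy1a1 and Gucy1b1 and the cyclic GMP phosphodiesterase Pde5a, were all negative in osteoarthritic against healthy cartilage, with a median of -0.42, and 2 of 3 were negative without osteoarthritic replicates 2 and 3, with a median of -0.27. Gucy1b1 had 25.5, 23.9, 30.1 and 25.0 CPM in osteoarthritic cartilage and 30.4, 33.8, 30.7 and 41.2 CPM in healthy cartilage. These did not overlap, at -0.38 ± 0.11 (edgeR adjusted p = 0.135), and without osteoarthritic replicates 2 and 3 it was -0.43. Ddah2, which degrades the synthase inhibitor asymmetric dimethylarginine, gave 0.32 ± 0.13 (0.225) and 0.15 without osteoarthritic replicates 2 and 3, and Ass1, which helps to resupply arginine, gave -0.49 ± 0.22 (0.271).

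**Figure D4:**
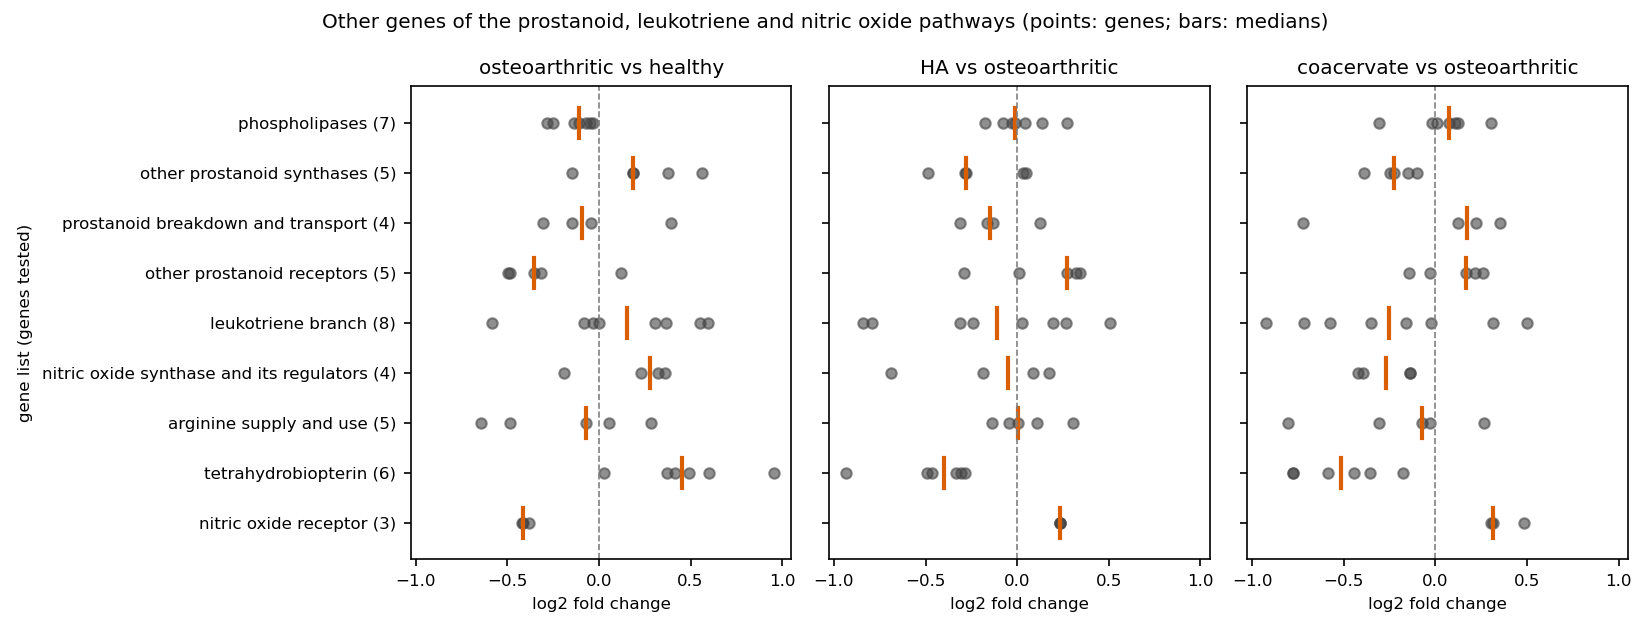
The log2 fold change (x axis) of each tested gene (points) in 9 pathway lists (rows, with the number tested), with the list median as a bar, in 3 comparisons. The 6 tetrahydrobiopterin genes lie to the right of 0 in osteoarthritic vs healthy and to the left in both treated groups vs osteoarthritic, while the 3 nitric oxide receptor genes lie the other way; none of the points had an adjusted p under 0.05.

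The tested genes whose log2 CPM followed Ptgs2, Ptges and Nos2 most closely over the 16 libraries were read by Pearson's correlation. This is a description of libraries that share their groups and depth. The values are the highest picked over all named tested genes, and how high such a maximum runs by chance was not tested. For Ptgs2 they were Rapsn (0.843), Spry1 (0.822) and Nmnat1 (0.80). For Ptges they included Ddah2 (0.803) and B4galt4 (0.77). For Nos2 they were Hgf (0.816), Rasa2 (0.786) and Ptprc (0.786), the last a gene of all leukocytes.

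**Figure D5:**
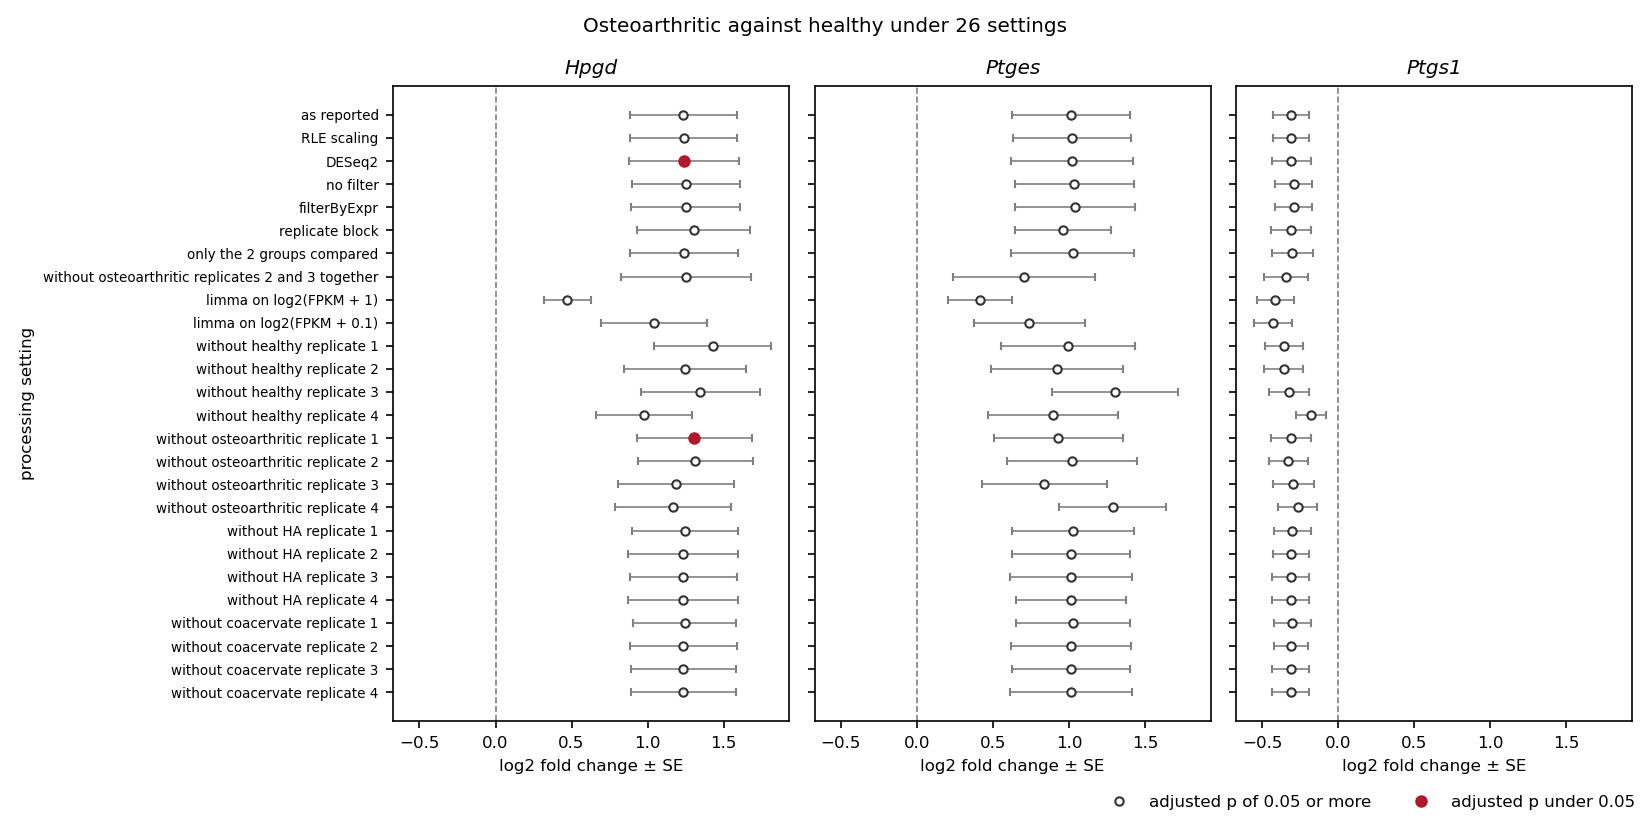
The log2 fold change ± SE (x axis) of Hpgd, Ptges and Ptgs1 in osteoarthritic vs healthy cartilage under 26 processing settings (rows); filled points have an adjusted p under 0.05. Every value of Hpgd and Ptges is above 0 and every value of Ptgs1 below 0, and the filled points are Hpgd with DESeq2 and without osteoarthritic replicate 1.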

How the data were processed

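RNA was measured in 16 rat knee cartilage libraries by paired-end sequencing of poly(A) RNA, made with a dUTP strand-marking kit per the labels' protocols. The deposited table gives counts per gene and FPKM, both made by the authors. Without roles, edgeR, DESeq2, StringTie 2.1.6, HISAT2 2.2.1 and cutadapt 1.9 are listed with the build rn6 per the submitters' processing notes. The counting tool, annotation and strand setting are not given in the sources used here, so reads of overlapping genes may be split wrongly. Gene positions are those of the deposited table.

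Counts were fitted with edgeR 4.0.16 in R 4.3.3 (glmQLFit and glmQLFTest, 4 group means, TMM scaling, no covariates) over genes with at least 1 FPKM in 4 libraries. Each edgeR SE is the absolute log2 fold change divided by the square root of the quasi-likelihood F statistic. Intervals use this SE and the t quantile of the fit. FPKM set this filter and served to compare levels between genes and to check whether groups overlapped. It was also used in limma 3.58.1 with pseudocounts of 1 and 0.1. DESeq2 1.42.0 was another alternative. The others were RLE scaling, no filter, edgeR's own filter, a replicate block, fits on the 2 groups compared, fits without osteoarthritic replicates 2 and 3, and leaving out each library. Depth, 36988722 to 50725189 counts, limits the precision of low genes such as Hpgd.

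The 9 genes, pathway lists, marker lists and motifs were chosen with earlier results of these data known. All 9 are named. Of each pathway list, at most 4 genes with the smallest p in osteoarthritic against healthy cartilage are named. Plaa is named for what it encodes, and Lta4h was named after its values were seen. One gene that correlated with Ptges is not reported here. Ptgis, Ptgdr and Prkg1, and the markers Pecam1, Myh1 and Myh2, were not analysed here; Pla2g10, Ptgds, Ptgdr2, Nos1 and Arg2 were below the filter.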

Additional observations from a re-analysis of the deposited data

Results flagged for a closer look

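Among the 9 genes in 4 groups, 36 sets of 4 libraries were checked for a library far from the rest of its group, and 2 held one; chance gives about 1 in 20. Nos2 in osteoarthritic replicate 4 was 17.2 CPM, and the other osteoarthritic libraries were 7.09 to 8.35 CPM, so the gap was 0.876 of the group's range. Ptgs1 in coacervate replicate 2 was 97.5 CPM, and the other coacervate libraries were 77.6 to 79.0 CPM, a gap of 0.931 of the range. Both are given as values, and their causes were not tested.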

How the results depend on the processing

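Of 1350 log2 fold changes of the 9 genes under 25 other settings, 1304 had the sign reported and 46 the opposite one, none of the latter at an adjusted p under 0.05. The number of the 9 genes called in osteoarthritic against healthy cartilage was 1 with DESeq2 and 0 to 1 over the fits that left out a library; in the other 5 comparisons it was 0 under every setting. Without osteoarthritic replicates 2 and 3, osteoarthritic over healthy cartilage turned to -0.24 for Ptges3, 0.24 for Nos2 and 0.16 for Nos3; HA over osteoarthritic cartilage to 0.19 for Ptges3, -0.26 for Ptger2, -0.10 for Nos2 and -0.33 for Nos3; and coacervate over osteoarthritic cartilage to -0.18 for Ptgs2 and 0.18 for Ptges3. With limma on log2(FPKM + 1) and log2(FPKM + 0.1), Ptger2 turned to -0.097 and -0.17 in osteoarthritic over healthy, Ptger4 to 0.021 and 0.024 in HA over osteoarthritic, and Nos2 to 0.034 and 0.085 in coacervate over osteoarthritic cartilage. Leaving out 1 library at a time, Nos2 ranged from -0.42 to 0.10 in osteoarthritic over healthy, -0.20 to 0.31 in coacervate over osteoarthritic and -0.22 to 0.066 in coacervate over healthy cartilage. Nos3 ranged from -0.11 to 0.25 in HA over osteoarthritic and -0.15 to 0.41 in coacervate over healthy. Ptger2 ranged from -0.15 to 0.14 in osteoarthritic over healthy, -0.075 to 0.22 in HA over osteoarthritic, -0.31 to 0.056 in coacervate over osteoarthritic, -0.061 to 0.17 in HA over healthy and -0.30 to 0.062 in coacervate over healthy. Ptgs2 ranged from -0.33 to 0.027 in HA over osteoarthritic, -0.15 to 0.32 in coacervate over osteoarthritic and -0.45 to 0.071 in coacervate over healthy. Ptges3 ranged from -0.078 to 0.022 in coacervate over HA, and Ptgs1 from -0.16 to 0.043 in HA over healthy. The causes were not tested. Over all genes, the 72 called in osteoarthritic against healthy cartilage became 418 with DESeq2, 45 with no filter, 21 and 28 with limma, 8 with those groups alone, 164 without osteoarthritic replicates 2 and 3, and 15 to 1122 on leaving out a library. The 21 in coacervate against osteoarthritic cartilage became 797 with DESeq2 and 0 to 2054 on leaving out a library. They became 0 with no filter, with edgeR's own filter, with limma and with those groups alone, and 3 without osteoarthritic replicates 2 and 3. The 23 in HA against healthy became 159 with DESeq2, 7 with no filter, 14 and 15 with limma, and 0 to 37 on leaving out a library. They became 390 with those groups alone and 94 without osteoarthritic replicates 2 and 3. The 0 in coacervate against HA became 325 with DESeq2 and 149 without that pair, and stayed 0 with those groups alone. The same-numbered libraries did not deviate together (4 of 24 pairs had a correlation over 0.1, mean -0.046; 1 of 16 libraries correlated best with its own number); with the number as a replicate block, 26, 0 and 0 genes were called in these comparisons and 0 of the 9 genes.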

Other observations

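Within the coacervate group, replicates 2 and 3 had the higher values of Hpgd (2.01 and 2.13 CPM, against 0.990 and 1.01 CPM in replicates 1 and 4), Ptges (2.09 and 2.23 CPM, against 0.970 and 1.46 CPM), Ptger2 (4.94 and 6.004 CPM, against 3.60 and 2.75 CPM) and Nos3 (10.8 and 18.8 CPM, against 6.21 and 9.42 CPM). The fibroblast and synovial lining marker sum was 1196 and 1762 CPM in replicates 2 and 3 and 837 and 847 CPM in replicates 1 and 4, and the skeletal muscle sum 8214 and 17353 CPM against 4769 and 4771 CPM. This split of replicates was seen in the values and has no test.

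In the leukotriene branch, Lta4h, the enzyme that makes leukotriene B4, had 198, 231, 160 and 168 CPM in the coacervate group and 298, 277, 293 and 239 CPM in the HA group, so the groups did not overlap (-0.55 ± 0.13, edgeR adjusted p = 0.138). Alox5ap did not overlap either, at 67.6, 74.2, 76.0 and 82.3 CPM in the coacervate group and 119, 97.5, 104 and 96.8 CPM in the HA group (-0.47 ± 0.22, edgeR adjusted p = 0.461). Without osteoarthritic replicates 2 and 3, edgeR gave adjusted p-values of 0.0487 for Lta4h and 0.0448 for Alox5ap. Those libraries belong to neither group compared, so leaving them out changes the scaling and the shared estimate of the spread. The fit on the coacervate and HA libraries alone called 0 of all tested genes. Of the 47 pathway genes tested, 7 did not overlap between these groups (1 higher and 6 lower in the coacervate group), against 9.71% of all tested genes. The neutrophil marker sums were 4713 to 6410 CPM in the coacervate group and 8021 to 9971 CPM in the HA group. Their part was not tested.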
